A study of Mus musculus with 6 samples.

Results

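The 53 genes described here are annotated as antisense RNA genes in the deposited table and averaged at least 50 normalized reads over all 6 libraries. They were selected on the deposited annotation class and on this mean, from 1792 antisense genes, of which 837 had reads, in a table of 41214 genes. Ptgs2os2 was left out by the rule. Because the choice used the mean level over both groups, levels are given as a description. The 3 genes just inside the limit were 2900093K20Rik, Gm26982 and Chrna1os, at means of 53.7, 53.7 and 54.3 normalized reads. The 3 just outside it were Gm16062, 3110045C21Rik and Tmem147os, at 49.4, 49.0 and 48.8.

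Antisense genes are transcribed from the DNA strand opposite to another gene, usually a protein-coding one, and most yield no known protein. Some act on the gene they overlap, by transcription through its promoter, by recruiting chromatin-modifying complexes or by pairing with its RNA. Airn and Kcnq1ot1, which silence neighbouring genes on the paternal chromosome at imprinted loci, are the best documented in the mouse. In human cells an antisense RNA of ZEB2 has been described that acts on the splicing of the ZEB2 5′ leader during the epithelial-mesenchymal transition. For most of the genes described here no function is documented.

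Total RNA was sequenced on an Illumina HiSeq 2000 from explants of mouse mammary tumors kept as cultured cells, in medium with serum, insulin and G418. In the CdGAP-depleted group (shCdGAP, 3 libraries) the cells carried a short hairpin RNA against CdGAP, and in the control group (shCON, 3 libraries) a control hairpin. Both groups carried Neu-NT, a constitutively active version of ErbB2, in cells that go back to the mouse mammary epithelial line NMuMG. CdGAP, the protein of Arhgap31, switches off the small GTPases Rac1 and Cdc42. The question was how it represses, with Zeb2, the E-cadherin gene Cdh1. The genotype label separates the groups, whereas the cell type label names the control hairpin in all 6 samples. The labels name neither the hairpin sequences nor separate clones or cultures, so p-values measure no more than library-to-library spread, and this may be technical. In bulk RNA, fewer cells of a type and less RNA per cell cannot be told apart.

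Reads assigned to genes numbered 23151324, 22088774 and 25893195 in shCdGAP and 19176540, 26824249 and 25978281 in shCON, for replicates 1, 2 and 3. Arhgap31 stood at 0.149, 0.826 and 0.748 FPKM in shCdGAP libraries and 1.19, 1.30 and 1.35 in shCON libraries, so the groups did not overlap, but its log2 fold change of -1.25 (SE 0.51) missed the threshold (adjusted p = 0.144, limma). Without shCdGAP replicate 1, the lowest library, it was -0.64 and passed (adjusted p = 0.0213). Of 12 mammary epithelial markers, 4 reached 1 FPKM in some library, Cldn7 was at 0, and Elf5, Epcam, Esr1, Gata3, Krt14, Krt5 and Krt7 stayed under 1. The summed level of the 12 was 4002 to 6555 FPKM in shCdGAP and 3618 to 5065 in shCON. None of 8 fibroblast, 6 endothelial or 5 erythroid markers reached 1 FPKM (0 of each list), against 2 of 7 leukocyte and 1 of 4 adipocyte markers. The leukocyte sum was 3.01 to 9.79 FPKM in shCdGAP and 12.8 to 17.7 in shCON, with Adgre1 at 0, and the adipocyte sum was 0.275 to 1.01 FPKM in shCdGAP and 2.19 to 3.98 in shCON, with Plin1 at 0. The part of these cell types in the results was not tested.

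Replicate 1 of shCdGAP stood apart. Over the 53 genes its log2 levels correlated at 0.895 and 0.886 with shCdGAP replicates 2 and 3, while those 2 libraries correlated at 0.988. It lay outside the range of the other 5 libraries for 31 of the 53 genes, and for 62.1% of all tested genes. In the same library 15 mitosis genes summed to 69.0 FPKM, against 1124 and 1089 in shCdGAP replicates 2 and 3 and 535 to 802 in shCON. Results are therefore also given without it.

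To identify the genes, sequences of 7 of the 10 that passed the test are printed, as promoter windows or as stretches of transcript. For 3 of them RefSeq holds a promoter window that overlaps no annotated untranslated region, of 250 bases before to 50 after the start on GRCm38.p6. Each window is written 5′ to 3′ on the strand of the antisense gene, with CpG dinucleotides in capitals. They are chr17:24528001-24528300 (plus strand) for Rab26os, chr2:27162654-27162953 (minus) for Dbhos and chr2:58276529-58276828 (plus) for Gm13544.
Rab26os: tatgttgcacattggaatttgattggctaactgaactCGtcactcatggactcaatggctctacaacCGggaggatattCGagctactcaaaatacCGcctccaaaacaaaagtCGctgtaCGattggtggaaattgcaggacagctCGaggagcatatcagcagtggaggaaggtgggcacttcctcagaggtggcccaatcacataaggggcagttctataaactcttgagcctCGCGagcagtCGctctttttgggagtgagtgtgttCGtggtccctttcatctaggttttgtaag
Dbhos: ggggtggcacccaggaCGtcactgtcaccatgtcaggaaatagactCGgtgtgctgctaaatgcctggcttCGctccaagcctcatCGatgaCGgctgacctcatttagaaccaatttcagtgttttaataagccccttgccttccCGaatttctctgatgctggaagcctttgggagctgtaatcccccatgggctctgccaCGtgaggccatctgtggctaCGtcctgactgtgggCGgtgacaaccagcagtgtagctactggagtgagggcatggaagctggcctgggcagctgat
Gm13544: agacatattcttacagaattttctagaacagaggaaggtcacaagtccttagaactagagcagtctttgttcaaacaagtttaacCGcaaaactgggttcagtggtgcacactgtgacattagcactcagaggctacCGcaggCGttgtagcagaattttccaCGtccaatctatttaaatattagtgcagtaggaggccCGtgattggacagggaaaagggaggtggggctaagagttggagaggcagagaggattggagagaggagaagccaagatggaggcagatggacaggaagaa
The Rab26os window held 11 CpG and was 48.3% G and C, that of Dbhos 9 and 55.3%, and that of Gm13544 5 and 46.3%, against a median of 7 CpG over all 32851 RefSeq windows.

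For 4 genes with no such window, a stretch of 120 bases of the GENCODE M21 transcript is given that lies in no exon of any other gene, so that its letters belong to the antisense gene alone. No base is marked. The stretches lie in exon 2 of Runx2os1 (chr17:44737340-44737459, plus strand), exon 1 of A530020G20Rik (chr3:121531772-121531891, plus), exon 1 of Gm13583 (chr2:60552355-60552474, plus) and exon 3 of Gm11659 (chr11:104253305-104253424, minus), all on mm10.
Runx2os1: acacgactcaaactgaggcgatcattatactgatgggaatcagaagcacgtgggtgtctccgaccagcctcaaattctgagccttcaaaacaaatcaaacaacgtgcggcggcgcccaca
A530020G20Rik: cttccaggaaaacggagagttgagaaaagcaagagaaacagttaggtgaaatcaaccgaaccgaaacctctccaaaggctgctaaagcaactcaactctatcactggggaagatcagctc
Gm13583: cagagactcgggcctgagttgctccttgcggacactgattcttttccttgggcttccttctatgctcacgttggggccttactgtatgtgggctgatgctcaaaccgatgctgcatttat
Gm11659: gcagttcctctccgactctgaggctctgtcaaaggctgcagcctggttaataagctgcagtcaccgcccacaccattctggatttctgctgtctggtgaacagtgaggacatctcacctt
Their share of G and C was 50.8%, 45.8%, 51.7% and 53.3%, in the order printed.

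RefSeq windows were found for 32 of the 53 genes. In 11 genes that start head to head with a partner the window held 3 to 45 CpG (median 22), and in the other 21 it held 2 to 39 (median 11). The E-box CAGGTG, on both strands (CAGGTG or CACCTG), which Zeb and Snail factors are known to bind, was searched in the window nearest each annotated start. It was found in 3 of 32 (9.38%), those of Gm20324, Gm15417 and Chrna1os, and in 20.2% of all RefSeq windows. Of the 5 genes with a window that passed the test, 0 had it in this nearest window, but Gm28809 had it in 2 of its 5 windows.

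The deposited annotation class and GENCODE M21 differed for a few genes. Of the 53, 49 were antisense in M21 as well, 4632427E13Rik was a bidirectional promoter RNA, 3110056K07Rik a processed transcript and Inafm2 a protein-coding gene, and Gm16586 had no M21 entry. In 17 cases the gene lay inside an opposite-strand protein-coding gene, here called its partner. A further 13 overlapped the partner head to head, 10 overlapped it tail to tail, 5 started head to head within 2000 bases without overlap, and 2 contained the partner. For 5 genes no partner was found, and Gm16586 could not be placed. The exons covered 466 to 93092 bases (median 1752), and 14 genes had a single exon.

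The sources used here do not state how strand was handled, and without strand the reads of a gene and of an overlapping gene cannot be told apart. The data bear on this in 1 place, without settling it. In 15 antisense genes with reads, every exon base lay inside exons of a single opposite-strand gene. For the 9 of these whose covering gene averaged at least 10 FPKM, the antisense gene stood at 0.0356% to 2.02% (median 0.607%) of the covering gene's FPKM. Of 39 genes of any class covered in this way, 13 had a covering gene at that level. The highest of these 13 was the pseudogene Gm5812, at 89.7% of the FPKM of Tulp4. Gm11583, which lies inside exons of the nuclear import gene Kpnb1, had 80 reads in all and 0.691% of the FPKM of Kpnb1. Genes with no reads could not enter this check. The check cannot settle how strand was handled, since without strand, reads in exons of more than 1 gene may also have gone uncounted. Among the 53 genes, 19 shared no exon base with another gene, and 8 shared at least 50% (Runx2os1, A930015D03Rik, Gm10501, BC023719, Gm16537, 1110002L01Rik, 9130221H12Rik and A630072M18Rik). This sharing counts genes on either strand, and A930015D03Rik and BC023719 shared no exon base with their partners. The levels of these 8 are uncertain because of the shared bases.

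The 53 genes together took 0.0476%, 0.0576% and 0.0525% of the reads in shCdGAP and 0.0499%, 0.0551% and 0.0544% in shCON. FPKM, the fragments per kilobase of exon scaled for library depth, averaged 0.132 to 20.6 per gene over the 6 libraries, with a median of 2.82. It was under 5 for 37 genes and at least 10 for 7. Brip1os is named for Brip1, the gene of a BRCA1-interacting helicase, and contains on the opposite strand Ints2, the gene of an Integrator complex subunit. It contributed 16.1% to 30.9% of these reads. It stood at 11.9, 27.5 and 25.5 FPKM in shCdGAP and 15.5, 21.8 and 21.5 in shCON, with shCdGAP replicate 1 lowest of all 6 and overlapping groups. Its log2 fold change was 0.06 (SE 0.34, limma adjusted p = 0.918).

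In shCdGAP, 4 of the 53 genes were higher and 6 were lower, of which 4 entered the test through shCON alone. The test was limma on log2(FPKM + 0.1), at an adjusted p under 0.05 (Benjamini-Hochberg over 13483 tested genes). That is 18.9%, against a background of 21.8% of all tested genes, 10.4% higher and 11.5% lower, and 20.4% of tested genes with the same minimum of 50 normalized reads. The share of changed antisense genes was thus near that of genes at large. Another 12 genes had an unadjusted p under 0.05 without passing. In all, 22 of the 53 had an unadjusted p under 0.05 (limma), against 4687 of the 13483 tested genes. Groups did not overlap for 24 of the 53 (45.3%), against 44.1% of all tested genes. The median log2 fold change of the 53 was 0.13, and that of all tested genes -0.018. Among long intergenic RNA genes with at least 50 normalized reads 12 were higher and 12 lower of 101 (23.8%), and among 144 tested antisense genes under 50 normalized reads 17 were higher and 16 lower (22.9%).

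**Figure D1:**
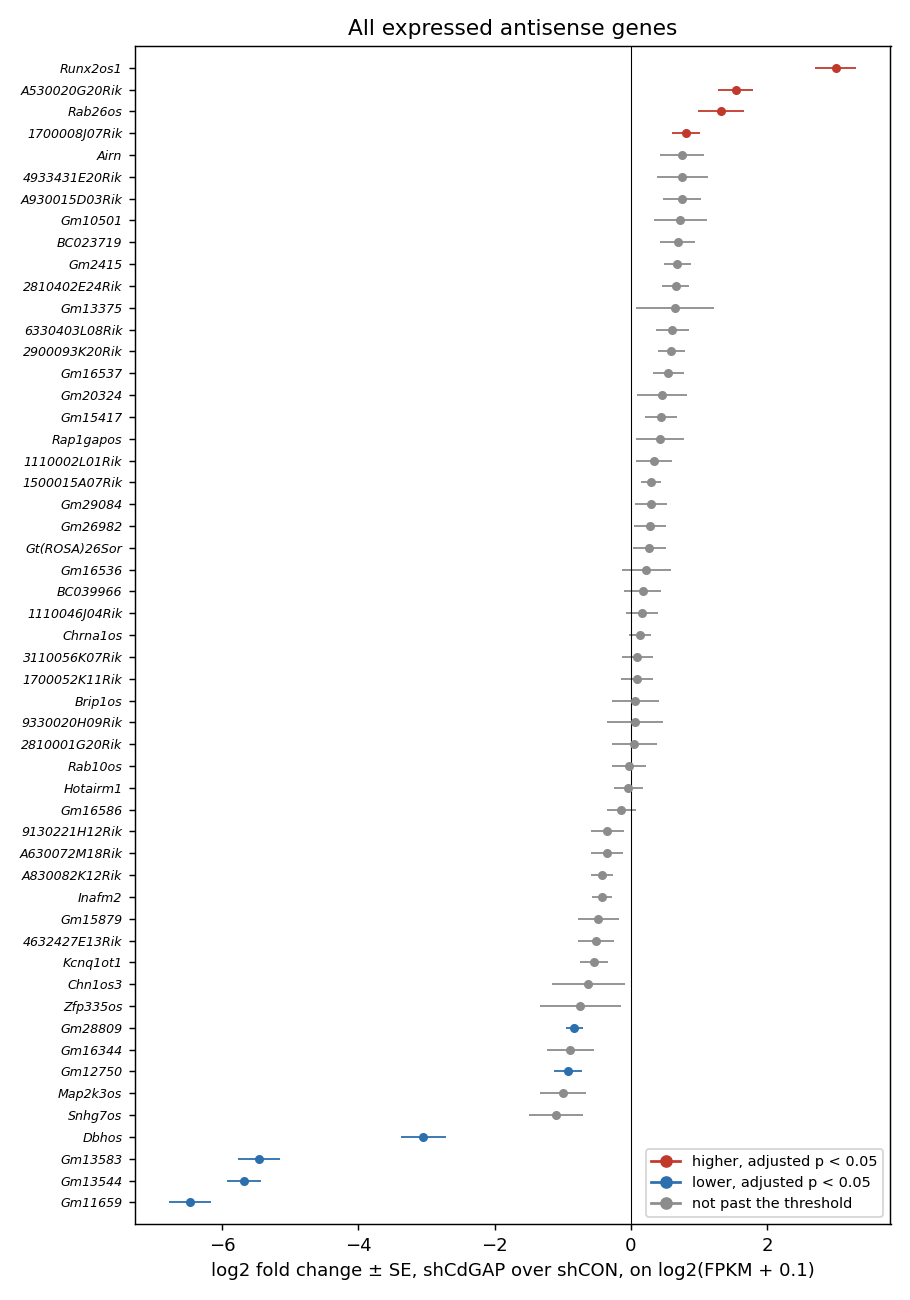
The log2 fold change of each of the 53 antisense genes, shCdGAP over shCON, with its standard error (n = 3 libraries each), ordered from highest to lowest. The 4 genes in red were higher and the 6 in blue lower at an adjusted p under 0.05, and 4 genes at the bottom, from Dbhos at -3.05 to Gm11659 at -6.46, lie far below the rest.

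Runx2os1 showed the largest rise. It lies on the plus strand of chromosome 17 (44735845 to 44737612 on mm10) inside Runx2, the gene of the osteoblast transcription factor, and 519 of its 792 exon bases are shared with exons of Runx2. It stood at 12.4, 23.0 and 26.9 FPKM in shCdGAP, from 225, 400 and 529 reads, against 2.81, 2.11 and 2.27 in shCON (43, 46 and 48 reads). Every shCdGAP library lay above every shCON library, with shCdGAP replicate 1 the lowest of its group. This was a log2 fold change of 3.001 with a standard error of 0.30 (adjusted p = 0.00133, limma). Without that library it was 3.33. Runx2 itself stood at 10.2, 9.08 and 8.30 FPKM in shCdGAP and 7.83, 6.18 and 6.56 in shCON. Its log2 fold change was 0.42 (SE 0.14, limma adjusted p = 0.0864). The ratio of Runx2os1 to Runx2 rose by 2.58 on the log2 scale (SE 0.37, limma adjusted p = 0.00377 on log2 ratios over 149 pairs).

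A530020G20Rik, on chromosome 3 (121531619 to 121536206, plus strand), overlaps head to head Slc44a3, a gene of the choline transporter-like family. It stood at 1.95, 2.33 and 1.35 FPKM in shCdGAP and 0.447, 0.629 and 0.636 in shCON, without overlap. Its log2 fold change was 1.54 (SE 0.26, limma adjusted p = 0.00880). Slc44a3 rose as well, at 31.6, 11.0 and 10.4 FPKM in shCdGAP and 3.40, 2.74 and 3.04 in shCON (log2 fold change 2.29, SE 0.43, adjusted p = 0.0139, limma). The call on Slc44a3 was lost without any 1 shCON library (adjusted p = 0.0541 to 0.0614). This was the 1 pair in which both genes passed the test in the same direction. Its shared exon bases were 9.25% of the antisense gene.

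Rab26os, a gene with 497 exon bases on chromosome 17 (24528248 to 24528744, plus strand), lies inside Rab26, a small GTPase gene of secretory vesicles. It stood at 14.0, 24.8 and 34.0 FPKM in shCdGAP and 7.5, 8.78 and 11.4 in shCON, the lowest shCdGAP library being replicate 1, just above the highest shCON library. The log2 fold change was 1.32 (SE 0.34, limma adjusted p = 0.0390). Rab26 itself had 1 to 5 reads per library, too few to be tested. The call on Rab26os was lost without shCdGAP replicate 2 (adjusted p = 0.121) or 3 (0.0764), or without shCON replicate 1 (0.135), 2 (0.129) or 3 (0.0784). It was also lost with limma-voom on recovered reads (0.0541) and with no filter on low values (0.0623).

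1700008J07Rik, a single-exon gene on chromosome 7 (127510438 to 127512869, minus strand), overlaps the start of Srcap, the ATPase gene of a chromatin-remodelling complex. It stood at 1.71, 2.23 and 2.17 FPKM in shCdGAP and 0.894, 1.17 and 1.31 in shCON, without overlap. Its log2 fold change was 0.81 (SE 0.21, limma adjusted p = 0.0367), and the call was lost without any 1 library other than shCdGAP replicate 1 (adjusted p = 0.0772 to 0.127) and with no filter on low values (0.0583). Srcap did not pass (-0.19, adjusted p = 0.373).

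**Figure D2:**
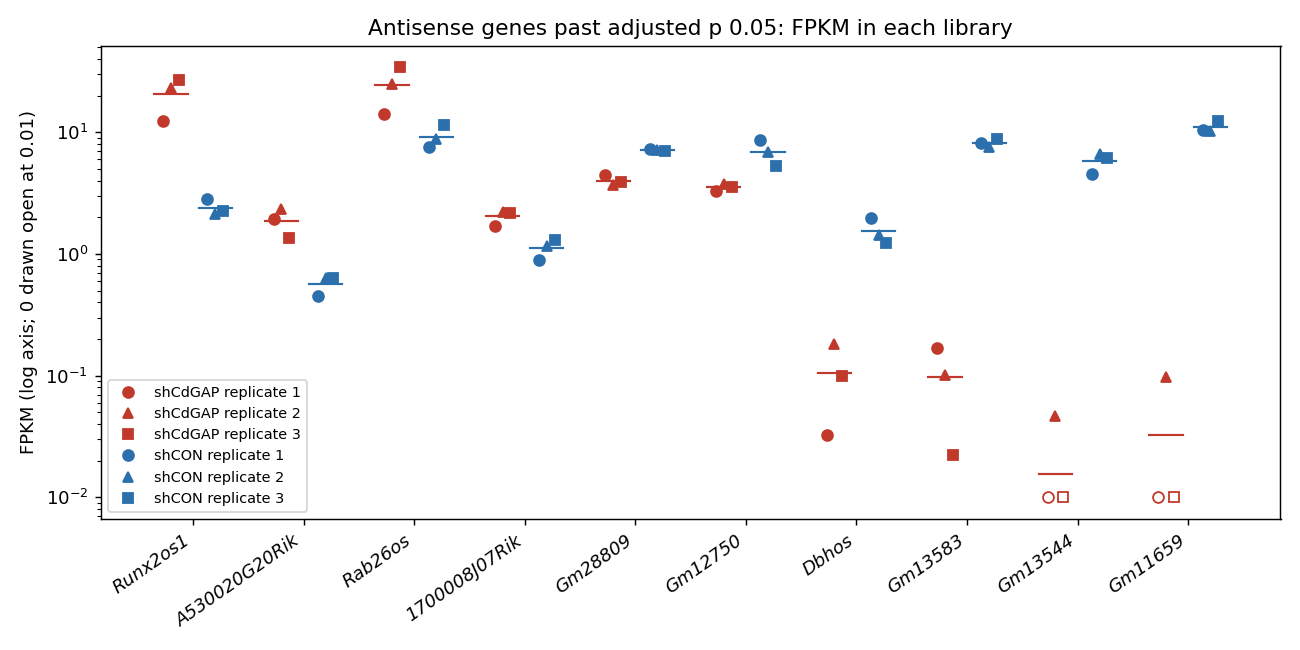
FPKM of the 10 antisense genes past the threshold in each library, on a log axis, with shCdGAP in red left of shCON in blue, a symbol per replicate and a bar at the group mean (n = 3 each). Open symbols at 0.01 stand for 0 FPKM. Runx2os1 lies at 12.4 to 26.9 FPKM in shCdGAP and 2.11 to 2.81 in shCON, whereas Gm13544 and Gm11659 have 0 in shCdGAP replicates 1 and 3.

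Of the 6 genes that were lower, 4 were near 0 in shCdGAP. Dbhos, Gm13583, Gm13544 and Gm11659 had at least 10 depth-scaled reads in all 3 shCON libraries and in at most 1 of the shCdGAP libraries, so they entered the test through shCON alone. Genes that enter in this way had to differ, and their fitted fold changes depend on the added 0.1 FPKM. Gm11659 lies inside Mapt, the gene of the microtubule-binding protein tau, on chromosome 11 (104250902 to 104259361, minus strand), with no shared exon base. It stood at 0, 0.0978 and 0 FPKM in shCdGAP, 1 read in all, against 10.4, 10.2 and 12.4 FPKM in shCON (94, 131 and 154 reads). The read ratio, scaled for depth, of shCdGAP over shCON was 0.00279 (95% exact interval 7.04e-05 to 0.0156, counting error alone). Its fitted log2 fold change was -6.46 (SE 0.31, limma adjusted p = 1.17e-04), and -3.54 with 1 FPKM added instead.

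Mapt moved the other way. It stood at 2.46, 1.02 and 0.674 FPKM in shCdGAP and 0.172, 0.237 and 0.228 in shCON, so that its log2 fold change was 2.07 (SE 0.44, limma adjusted p = 0.0215). Replicate 1 was the highest shCdGAP library, and the groups did not overlap. The call on Mapt was lost without any 1 shCON library (adjusted p = 0.0746 to 0.0849) or without shCdGAP replicate 2 (0.0607). With 1 FPKM added the log2 fold change of Mapt was 0.90 and missed the threshold (0.0574). The log2 ratio of Gm11659 to Mapt fell by 8.53 (SE 0.54, limma adjusted p = 5.65e-05), the largest fall among the 149 pairs. With 1 FPKM added, the smallest of the values under the alternatives, it was -4.44.

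Gm13544 lies on chromosome 2 (58276779 to 58286902, plus strand) inside Acvr1c, the gene of the activin receptor ALK7. It stood at 0, 0.0465 and 0 FPKM in shCdGAP, from 3 reads in all, against 4.53, 6.67 and 6.09 in shCON (257, 539 and 479 reads). The scaled read ratio of shCdGAP over shCON was 0.00249 (95% exact interval 0.000512 to 0.00728). The fitted log2 fold change was -5.67 (SE 0.25, limma adjusted p = 9.83e-05), and -2.72 with 1 FPKM added. Acvr1c was listed at 0 in all 3 shCdGAP libraries and at 0, 0 and 0.00402 FPKM in shCON.

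Gm13583, also on chromosome 2 (60550757 to 60553923, plus strand), overlaps head to head Pla2r1, the gene of a phospholipase A2 receptor. It stood at 0.169, 0.101 and 0.0223 FPKM in shCdGAP, from 7, 4 and 1 reads, against 8.13, 7.60 and 8.72 in shCON (284, 378 and 422 reads). Limma gave a log2 fold change of -5.46 (SE 0.31, limma adjusted p = 1.62e-04), and -3.06 with 1 FPKM added. Pla2r1 had 0 to 4 reads per library, too few to be tested. The nearest tested protein-coding gene was Itgb6, which encodes an epithelial integrin subunit, at a distance of 44369 bases. It was higher in shCdGAP, at a mean of 4.43 FPKM against 1.12 in shCON (log2 fold change 1.90, adjusted p = 0.0339, limma). This call was lost without any 1 library other than shCdGAP replicate 1 (adjusted p = 0.0718 to 0.112) and with no filter on low values (0.0548). Called neighbours of other called antisense genes within 100000 bases, partners aside, moved with their antisense gene. They were Vav2 near Dbhos (-0.84, limma adjusted p = 0.00526), Eps15 near Gm12750 (-0.49, 0.0159), and Eci1 (0.89, 0.0132) and Tsc2 (0.46, 0.0291) near Rab26os. The calls on Eps15, Eci1 and Tsc2 were lost without some single libraries. Itgb6 and these neighbours were named after their values were seen.

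Dbhos lies on chromosome 2 (27144898 to 27162703, minus strand) and is named for Dbh, the dopamine beta-hydroxylase gene, which was listed at 0 in all 6 libraries. It stood at 0.0326, 0.181 and 0.1001 FPKM in shCdGAP, from 3, 16 and 10 reads, against 1.98, 1.44 and 1.22 in shCON (154, 159 and 131 reads). Its log2 fold change was -3.05 (SE 0.33, limma adjusted p = 0.00180), and -1.196 with 1 FPKM added.

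The other 2 falls were smaller, with means in shCON 1.79-fold and 1.96-fold above those in shCdGAP. Gm28809 lies inside Cd9, a tetraspanin gene, on chromosome 6 (125481363 to 125484678, plus strand), with no shared exon base. It stood at 4.49, 3.66 and 3.86 FPKM in shCdGAP and 7.33, 7.17 and 7.0 in shCON (log2 fold change -0.83, SE 0.12, adjusted p = 0.00571, limma). Cd9, far more abundant at a mean of 238 FPKM, did not pass (0.06, adjusted p = 0.846). Gm12750, on chromosome 4 (109403794 to 109406155, minus strand), starts 468 bases from Ttc39a. It stood at 3.31, 3.77 and 3.52 FPKM in shCdGAP and 8.63, 6.91 and 5.23 in shCON (log2 fold change -0.92, SE 0.20, adjusted p = 0.0219, limma). The call on Gm12750 was lost without shCdGAP replicate 2 (adjusted p = 0.0646) or 3 (0.0571), or without shCON replicate 1 (0.0552) or 2 (0.0912). Ttc39a did not pass (-0.14, adjusted p = 0.524).

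Of the 10 calls, 7 held in every fit that left out a single library, the exceptions being Rab26os, 1700008J07Rik and Gm12750. Of the 7, Dbhos, Gm13583, Gm13544 and Gm11659 had to differ, as given above, so that their calls are no sign of stability. The other 3 were Runx2os1, A530020G20Rik and Gm28809. The authors' deposited table called 6 of the 53 genes higher and 8 lower, against 23.8% of all genes with an adjusted p in that table. It included all 10 genes called by limma, among them the 4 that had to differ. Both comparisons use the same 6 libraries. The 4 further genes in the authors' deposited table were Gm2415 (log2 fold change 0.73, adjusted p = 0.0198), 2810402E24Rik (0.68, 0.0202), Kcnq1ot1 (-0.94, 0.0133) and Map2k3os (-0.90, 0.0447).

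Several other abundant antisense genes did not pass the test. Gm16586 stood at 12.9, 21 and 14.3 FPKM in shCdGAP and 15.1, 19.2 and 17.8 in shCON (log2 fold change -0.14, SE 0.21, adjusted p = 0.675, limma). Inafm2, which M21 lists as a protein-coding gene, stood at 8.11, 10.7 and 10.2 FPKM in shCdGAP, below 13.7, 13.7 and 11.6 in shCON, but missed the threshold (-0.43, SE 0.15, adjusted p = 0.0890). Gt(ROSA)26Sor, the RNA of the Rosa26 locus widely used for transgene insertion, stood at 8.85, 14.5 and 15.7 FPKM in shCdGAP and 9.32, 10.3 and 11.95 in shCON (0.27, adjusted p = 0.475). For 1110002L01Rik, tail to tail with the kinesin gene Kif3c, the levels were 9.99, 6.51 and 6.01 FPKM in shCdGAP and 7.61, 5.25 and 4.79 in shCON (0.34, adjusted p = 0.412). For 6330403L08Rik, head to head with the growth factor gene Pdgfa, they were 5.01, 2.94 and 3.16 in shCdGAP and 2.68, 1.96 and 2.42 in shCON, without overlap (0.60, adjusted p = 0.136). In each of these 5 genes shCdGAP replicate 1 was the highest or the lowest library of the 6. 4933431E20Rik, tail to tail with Eps8l3, stood at 4.25, 1.71 and 1.65 FPKM in shCdGAP and 1.43, 1.30 and 1.25 in shCON, without overlap (0.75, adjusted p = 0.211). Rab10os, tail to tail with the vesicle GTPase gene Rab10, stood at 3.47, 2.19 and 1.86 FPKM in shCdGAP and 2.69, 2.24 and 2.49 in shCON (-0.03, adjusted p = 0.957). 1700052K11Rik, head to head with the kinase gene Tlk2, stood at 3.54, 3.10 and 3.07 FPKM in shCdGAP and 2.16, 3.37 and 3.80 in shCON (0.09, adjusted p = 0.819). The 43 genes that did not pass had log2 fold changes of -1.10 to 0.75.

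Without shCdGAP replicate 1, 12 of the 53 genes were higher and 11 lower (43.4%), against 40.9% of all tested genes in the same fit. The 10 genes called with all libraries were all among them, and 13 were called in this fit alone. Chn1os3, antisense to the Rac-GAP gene Chn1, stood at 1.75, 0.478 and 0.343 FPKM in shCdGAP and 1.05, 1.19 and 1.07 in shCON. Its log2 fold change was -0.62 (adjusted p = 0.458, limma) with all libraries and -1.25 (adjusted p = 0.00292) without shCdGAP replicate 1. Snhg7os stood at 1.02, 0.369 and 0.316 FPKM in shCdGAP and 1.36, 1.17 and 1.06 in shCON, with a log2 fold change of -1.10 (adjusted p = 0.105, limma) and of -1.55 (adjusted p = 0.00105) without that library. Gt(ROSA)26Sor was called in this fit as well (0.53, adjusted p = 0.0139). Chn1os3 and Snhg7os were named after their values were seen. When the replicate number entered as a block, BC023719 (limma adjusted p = 0.0411) and Gm16344 (0.0297) passed in addition to the 10, at log2 fold changes of 0.68 and -0.89. BC023719 and Gm16344 were named here for this result.

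**Figure D3:**
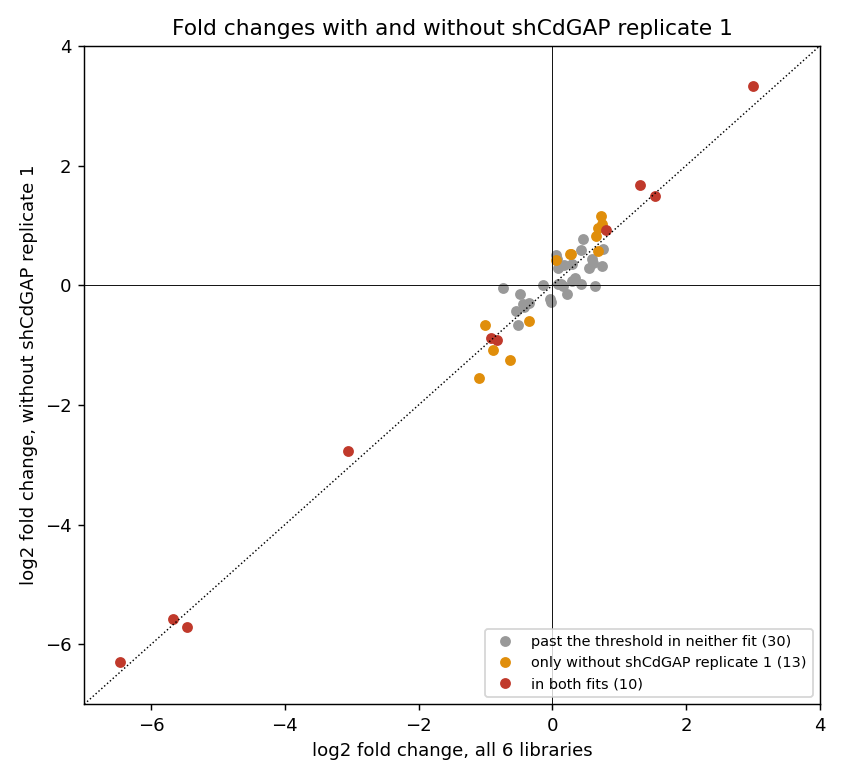
The log2 fold change of each of the 53 antisense genes, shCdGAP over shCON, with all 6 libraries (x axis) and without shCdGAP replicate 1 (y axis), with a dotted line of equal values. The 10 genes called in both fits are red, the 13 called without the library alone are orange and the 30 called in neither are grey.

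Of the 47 genes with a partner, 37 had a partner that passed the filter on low values. The partner's FPKM was above that of the antisense gene in 26 of these 37 pairs, and the antisense gene stood at a median of 39.3% of its partner. In 6 of the 37 pairs the antisense gene passed the test and in 6 the partner did, with both passing in 2. Of all tested genes 21.8% passed. The partners that passed while the antisense gene did not were Gpd1 (log2 fold change 0.97), Pard3b (1.15), Zfp335 (-0.51) and Rap1gap (-0.59). Their antisense genes Gm16537, Gm29084, Zfp335os and Rap1gapos had log2 fold changes of 0.55, 0.29, -0.74 and 0.42 and did not pass. The pairs of Gpd1, Zfp335 and Pard3b were named after their values were seen, and of these the call on Pard3b alone held on leaving out each library. Both genes of a pair had the same sign of fold change in 21 of 37. The fold changes of antisense gene and partner correlated at Pearson -0.19 and Spearman 0.27 over the 37 pairs, and at 0.40 and 0.37 over the 36 without Gm11659. Gm11659 was left out after its value was seen, and the Pearson value changed sign without its pair. The 2 values of a pair come from the same libraries, and pairs are not independent. Some pairs share exon bases, whose part in the correlations was not tested.

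The ratio of antisense gene to partner changed in 7 of the 37 pairs, 5 higher and 2 lower, against 23.5% of all 149 antisense pairs tested (35 pairs). Besides the pairs of Runx2os1 and Gm11659, these were Airn, 2900093K20Rik, 1700008J07Rik and Rap1gapos with higher ratios and Gm28809 with a lower one. Airn stood at 1.32, 1.42 and 0.640 FPKM in shCdGAP and 0.708, 0.589 and 0.501 in shCON, so the groups overlapped in 1 library. Its partner Igf2r, the receptor that clears Igf2 and that Airn silences on the paternal chromosome, stood at 1.19, 1.08 and 0.802 FPKM in shCdGAP and 1.37, 1.63 and 1.35 in shCON. Neither passed by itself (log2 fold changes 0.75, adjusted p = 0.155, and -0.47, adjusted p = 0.154). The log2 ratio of Airn to Igf2r rose by 1.23 (SE 0.28, limma adjusted p = 0.0282). It was 1.197 without shCdGAP replicate 1, and the call was lost without shCdGAP replicate 2 or any 1 shCON library (adjusted p up to 0.115).

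Rap1gapos lies inside Rap1gap, the gene of a GTPase-activating protein for Rap1. It stood at 18.3, 7.16 and 8.38 FPKM in shCdGAP and 6.92, 8.11 and 8.01 in shCON, while Rap1gap fell, at 8.60, 6.59 and 6.12 FPKM in shCdGAP and 10.0, 10.5 and 11.4 in shCON (log2 fold change -0.59, adjusted p = 0.0415, limma). The call on Rap1gap was lost with the block (adjusted p = 0.0810), with no filter on low values (0.0643), with quantile normalization (0.0521) and without any 1 library other than shCdGAP replicate 1 (0.0946 to 0.158). The log2 ratio rose by 1.02 (SE 0.30, limma adjusted p = 0.0481). For 2900093K20Rik and Oser1, an oxidative stress-responsive gene, the ratio rose by 0.95 (SE 0.24, limma adjusted p = 0.0296), for 1700008J07Rik and Srcap by 1.00 (SE 0.30, limma adjusted p = 0.0481), and for Gm28809 and Cd9 it was -0.89 (SE 0.23, limma adjusted p = 0.0314). The calls on these 4 ratios were lost when the replicate number entered as a block (adjusted p = 0.0829, 0.0505, 0.0718 and 0.0505, in the order given) and without each of the libraries other than shCdGAP replicate 1 (adjusted p up to 0.147). That on Rap1gapos was also lost with quantile normalization (adjusted p = 0.0516), with no filter on low values (0.0552), among genes of at least 50 normalized reads (0.0547) and without both libraries numbered 1 (0.0528). That on Gm28809 was lost with quantile normalization (0.0807), and that on 1700008J07Rik when only pairs sharing exon bases were tested (0.0624). Those on Runx2os1 and Gm11659 held in every alternative fit. Gm11659 itself had to be lower, as given above, so that its ratio call is no sign of stability. Over all 149 pairs, the antisense genes with the 5 highest ratios were Hnf1aos1, Hnf1aos2, Gm16897, Runx2os1 and Gm28902, and those with the 5 lowest were Gm11659, Ptprtos, Dnah2os, Gm16174 and Gm16104.

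**Figure D4:**
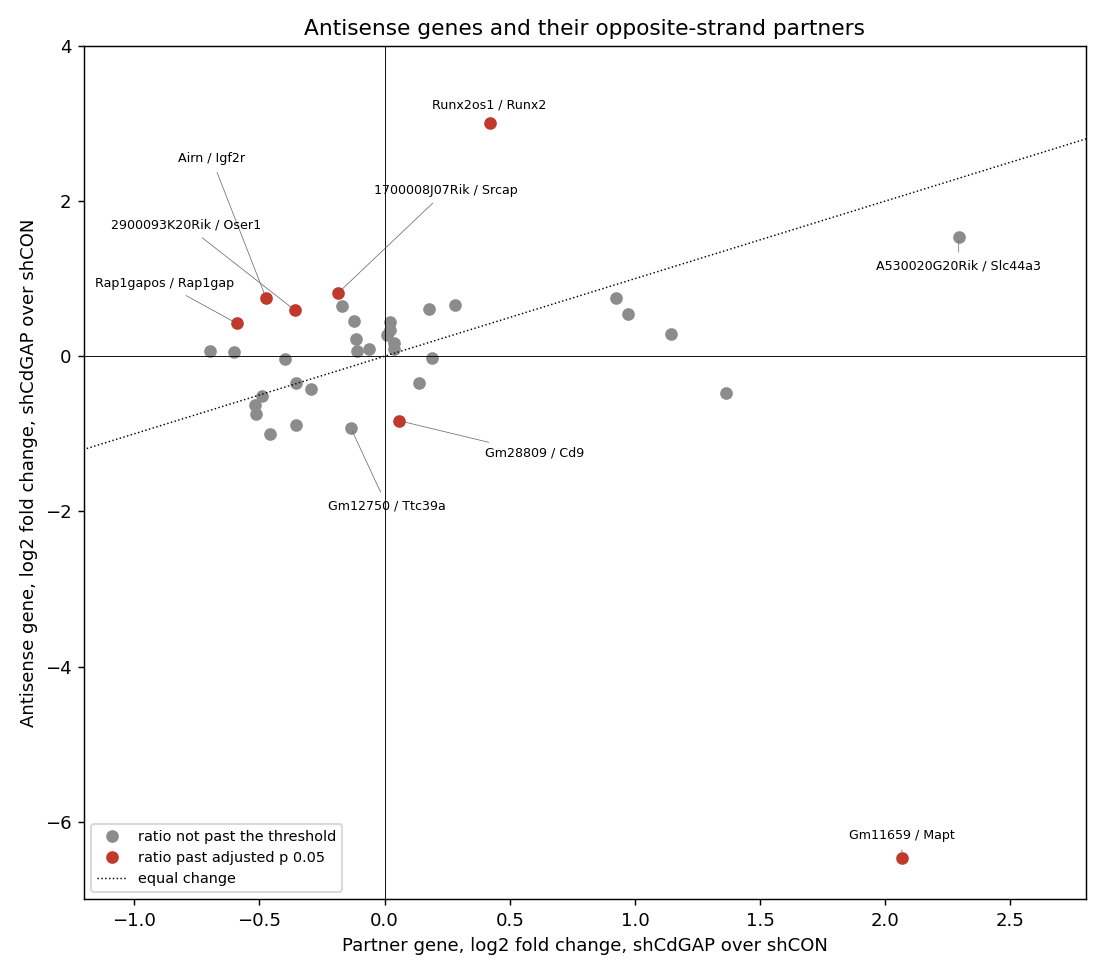
The log2 fold change of the partner (x axis) and of the antisense gene (y axis), shCdGAP over shCON, for the 37 pairs with both genes tested, with a dotted line of equal change. The 7 pairs whose ratio passed the threshold are red. Gm11659 with Mapt lies alone at the lower right, at -6.46 and 2.07.

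A list of 66 documented antisense and other regulatory RNAs, of which 45 were in the table, had 20 tested genes. Of these 20, 2 were higher and 1 lower, where 21.8% of all tested genes passed in either direction. The median log2 fold change of the 20 was -0.058. Higher were Rab26os and Gas5, a host gene of small nucleolar RNAs (0.48, adjusted p = 0.0249, limma). The call on Gas5 was lost with the block (adjusted p = 0.0589), and without shCdGAP replicate 2 or 3 or shCON replicate 2 or 3 (0.0640 to 0.122). Lower was Fendrr, the RNA divergent from Foxf1, listed at 0 in all 3 shCdGAP libraries and at 0.764, 0.252 and 0.349 FPKM in shCON (49, 23 and 31 reads). It entered the test through shCON alone, so its direction was fixed, and its fitted log2 fold change was -2.36, or -0.52 with 1 FPKM added. Zeb2os, antisense to Zeb2, averaged 1.44 normalized reads and was not tested. It stood at 0.0945, 0.0328 and 0 FPKM in shCdGAP and 0.112, 0.0262 and 0 in shCON. Zeb2 itself had a log2 fold change of -0.88 (adjusted p = 0.0302, limma), a call lost without any 1 library other than shCdGAP replicate 1 (adjusted p = 0.0686 to 0.105). Another 14 rows of the list had 0 reads in all 6 libraries, among them Hotair and H19.

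Of the 53 genes, 4 were on that list: Kcnq1ot1, Airn, Hotairm1 and Rab26os. Kcnq1ot1, whose annotated exon spans 93092 bases of chromosome 7 (143203458 to 143296549, minus strand), stood at 0.0591, 0.101 and 0.105 FPKM in shCdGAP, from 114, 188 and 220 reads. Its shCON values were 0.125, 0.202 and 0.199 FPKM (204, 470 and 450 reads). The groups did not overlap, and the log2 fold change was -0.54 (SE 0.20, limma adjusted p = 0.112), on a scale where the added 0.1 FPKM is close to its own level. On recovered reads it was -1.02 (limma-voom, adjusted p = 0.0572). Hotairm1, an RNA known from myeloid differentiation, stood at 5.38, 3.42 and 3.77 FPKM in shCdGAP and 4.90, 3.55 and 4.34 in shCON, with overlapping groups (-0.04, SE 0.22, adjusted p = 0.923, limma).

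The 52 genes with coordinates lay on 16 chromosomes. All 6 on chromosome 17 had a positive fold change, on a chromosome where 77.2% of 650 tested genes did (median log2 fold change 0.35), against 48.2% of all tested genes. Of 10 on chromosome 2, 3 had a positive fold change. The 3 that passed the test, against 21.1% of all tested genes of that chromosome, were Dbhos, Gm13583 and Gm13544, which entered it through shCON alone and so had to be lower. On chromosome 2, 28.3% of 1121 tested genes had a positive fold change (median -0.21). The fold changes of these antisense genes stand beside shifts of their whole chromosome, whose part in them was not tested.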

How the data were processed

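Total RNA of 3 shCdGAP and 3 shCON libraries was sequenced. Per the submitters' processing notes, the authors used Trimmomatic, TopHat2 2.0.13, featureCounts and DESeq2 with build mm10. Neither the annotation release nor the treatment of strand is stated in the sources used. The authors deposited 1 table with an FPKM value per gene and library, already divided by size factors. The authors' own comparison stands beside it, per the file headers: the mean signal of each gene (normalized reads), the log2 fold change and its error, the test score, and p-values, raw and adjusted.

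Reads were recovered as FPKM times the deposited mean signal over mean FPKM, times a size factor fitted to each library. All values (100%) came out whole, to a tolerance of 1e-06. The reads served for depth, filtering and limma-voom. The main test was limma 3.58.1 in R 4.3.3 (trend and robust, 2-sided) on log2(FPKM + 0.1), which understates changes of low genes, with Benjamini-Hochberg adjustment at 0.05. It covered 13483 genes with at least 10 depth-scaled reads in at least 3 libraries and 15 in all. The 53 antisense genes were all among them. Partners were opposite-strand protein-coding genes of GENCODE M21 with the largest overlap, or else with a start within 2000 bases. M21 holds 52 of the 53 identifiers, and the deposited FPKM implied its exon length for 48. Tables and plots used Python 3.11.15, pandas 2.3.3 and matplotlib 3.10.9. The limma step alone was tested on simulated reads. Intervals cover counting error only, since the reads carry no molecular identifiers.

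The rule, the lists and the tests were chosen with earlier results of these data known. Named are the most abundant genes, the largest changes past the threshold, those at the edges of the rule, documented RNAs, partners, the extreme ratios and genes that 1 library decides. Some other names are marked as chosen after their values were seen. The rest follow from the annotation or from a stated result. The groups share replicate numbers, and libraries with the same number deviated together from their group means across genes (correlations of 0.37, 0.31 and 0.27). The numbers were therefore treated as pairs in an alternative fit. The labels do not state a pairing, and shCdGAP replicate 2 also correlated at 0.28 with shCON replicate 3, so numbers 2 and 3 were not separated. Deviations from a group mean cancel within each group, so these correlations are not independent. A likeness of the libraries numbered 1 alone would also raise the others.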

Additional observations from a re-analysis of the deposited data

How the results depend on the processing

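The count of antisense genes called (10 of 53) stayed within 1.5 times under other pseudocounts (1 and 0.5 FPKM), filters, scalings, limma-voom, the authors' deposited comparison, limma without trend and robust steps, and a minimum of 100 normalized reads in the rule (7 of 30). Leaving out each library in turn gave 7 to 23, the highest without shCdGAP replicate 1. Leaving out both libraries numbered 1 gave 30, and a minimum of 20 normalized reads gave 21 of 108. Over all tested genes the count was 2943, with 1375 to 5511 on leaving out each library and 6651 without both libraries numbered 1. The 35 pair ratios called became 87 with no filter on low values, 7 with genes of at least 50 normalized reads, 17 with partners sharing exon bases, 10 to 53 on leaving out each library and 54 without both libraries numbered 1. With the replicate number as a block, 2660 genes, 12 of the 53 antisense genes and 24 pair ratios were called. The block changed no other call on the 53 genes or their pairs than those given beside the results. Over the single antisense genes, 810 values kept direction and side of the threshold, 29 (of 14 genes) changed sign without a call in either fit, 45 gained a call and 17 lost it. No called gene changed direction, but for Dbhos, Gm13583, Gm13544 and Gm11659, which entered the test through shCON alone, it was fixed. The cause of these shifts was not tested. Genes under 0.1 FPKM in a group have fold changes that are set by the pseudocount as much as by the reads.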
